A study of Homo sapiens with 2 samples.

Results

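Collagen chains are the protein subunits of the collagens. Their RNA levels were compared between ACHN cells with a Kindlin-2 shRNA (1 microarray) and ACHN cells with a control shRNA (1 microarray). Members were the genes whose single platform symbol reads COL, a number, A and a number, such as COL4A1. The rule found 45 transcript clusters, the array's unit for a gene, which stand for 43 genes of the 18417 named by a single symbol. ACHN is an established line from a human kidney cancer, given as clear cell renal cell carcinoma in the labels. Both cultures were transfected and grown with 10% FBS and 400 µg/ml G418, a drug that selects transfected cells, and the labels do not say whether either was a clone or a pool. Biotinylated cDNA from total RNA was hybridised to Affymetrix Human Gene 1.0 ST arrays. Each group held 1 array (n = 1), so every value is a single measurement without a replicate check and no p-value can be given. The number of arrays limits the precision of all values.

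A collagen is built from chains that wind into a triple helix, in which glycine recurs at regular spacing. Fibril-forming collagens make the cables of connective tissue, type IV collagen makes the sheet of basement membranes, and fibril-associated, beaded-filament, anchoring and transmembrane collagens link these to each other and to cells. Cells hold collagens through integrins with a beta-1 subunit and through discoidin domain receptors. Kindlin-2, encoded by FERMT2, binds the tails of beta integrins. In the kidney, tubule cells rest on a basement membrane that contains type IV collagen.

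The values are the authors' log2 values from RMA, in which a difference of 1 is a factor of 2. All differences below are Kindlin-2 shRNA minus control shRNA. Genes with at least 1 value of 6.52 or more, the median of all values and called the floor here, were kept, 11822 in all. FERMT2, the targeted gene, had a log2 value of 8.26 in the Kindlin-2 shRNA array and 9.37 in the control array, or 46.4% of the control level. Levels of different genes were not set against each other, because the probes of different genes differ in brightness. In a bulk sample, fewer cells that make a chain and less RNA per cell cannot be told apart.

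Most collagen chains had nearly the same value on both arrays. Of the 43 chains, 38 (88.4%) differed by less than 0.3 on the log2 scale, beside 73.8% of all 18417 genes. Of these 38, 15 were below the floor. In the family as a whole, 26 of the 43 chains reached the floor. Of these 26, 13 were higher and 13 lower in the Kindlin-2 shRNA array, with a median difference of -0.0034 beside -0.02 for all 11822 genes kept. The network collagen COL8A1 was 2.05-fold higher and the fibril-associated COL14A1 1.51-fold higher in the Kindlin-2 shRNA array. No chain was as much as 1.5-fold lower, and the lowest differences were those of COL28A1 (-0.30) and COL4A1 (-0.29).

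At 1.5-fold, 2 of the 26 chains were higher, where 5.10% of all genes kept were. At the same threshold 0 of 26 were lower, where 5.23% of all genes kept were. At 2-fold the counts were 1 higher and 0 lower, beside 1.41% and 1.26% of the genes kept. Over all 43 chains, those below the floor included, the counts were again 2 higher and 0 lower at 1.5-fold, beside 3.77% and 3.81% of the 18417 genes. At 2-fold they were 1 and 0 of 43, beside 1.01% and 0.896% of the genes. With so few chains these shares do not separate the collagens from other genes. The middle size of the difference, without its sign, was 0.12 for the 26 chains and 0.19 for all genes kept, and 88.5% of the chains beside 68.7% of the genes differed by less than 0.3. The chains had a median value of 7.20 and the genes kept one of 8.18, and the part of brightness in these figures was not tested.

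**Figure D1:**
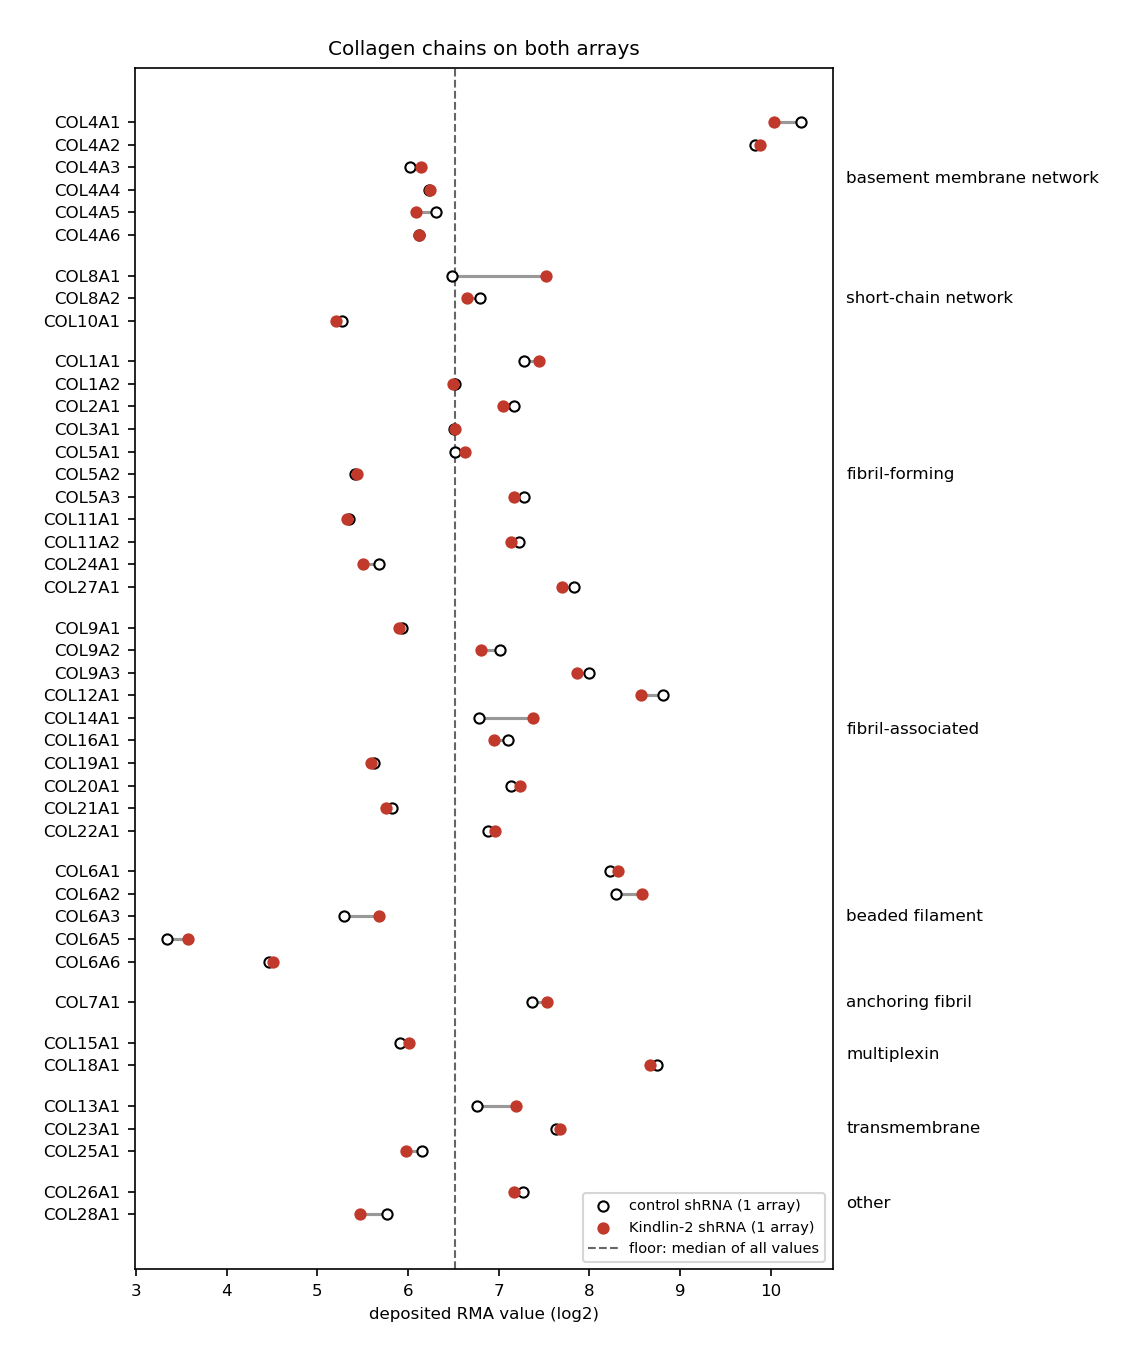
Deposited log2 values of the 43 collagen chains, by structural class, in the control shRNA array (open circles) and the Kindlin-2 shRNA array (filled circles), 1 array each. The dashed line is the floor of 6.52, and most pairs of circles touch or nearly touch, while COL8A1, COL14A1 and COL13A1 lie further apart, each with the Kindlin-2 shRNA value to the right.

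Type IV collagen is the network of basement membranes, and its chains are encoded in pairs of genes that are read in opposite directions. COL4A1 had a log2 value of 10.04 in the Kindlin-2 shRNA array and 10.33 in the control array, a difference of -0.29, or 1.23-fold lower. COL4A2, whose product joins that of COL4A1 in the same triple helix, had 9.89 and 9.83, a difference of 0.06. Both genes of the pair were thus well above the floor on both arrays and differed from each other by 0.36 in their differences. Of all genes kept, 2050 had a larger decrease than COL4A1, so its place is not near the end of the list.

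The starts of COL4A1 and COL4A2 lie 127 bases apart on chromosome 13 in RefSeq, and 1 promoter window of 300 bases holds both. The sequence is shown because these were the type IV genes kept, with differences of -0.29 for COL4A1 and 0.06 for COL4A2. The difference of COL4A2 was close to 0, and with the median of chromosome 13 subtracted it was -0.0009. The sequence is RefSeq's window for COL4A2 on GRCh38.p14, chr13:110307034-110307333, plus strand. It runs from 250 bases before to 50 bases after the start, which is base 251, and the start of COL4A1 on the other strand is base 124. Capitals mark the searched motifs, here 1 GC box and 1 CCAAT box.
COL4A2: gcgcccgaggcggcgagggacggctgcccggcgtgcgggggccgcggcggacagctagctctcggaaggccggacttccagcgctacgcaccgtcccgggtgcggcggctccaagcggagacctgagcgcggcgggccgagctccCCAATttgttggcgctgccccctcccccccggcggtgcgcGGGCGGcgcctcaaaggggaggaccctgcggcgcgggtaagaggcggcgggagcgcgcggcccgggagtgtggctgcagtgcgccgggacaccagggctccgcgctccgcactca

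The chains that take the place of COL4A1 and COL4A2 in specialised membranes stayed below the floor on both arrays. COL4A3 had 6.15 in the Kindlin-2 shRNA array and 6.02 in the control array, and its neighbour COL4A4 had 6.24 and 6.23. COL4A5 had 6.09 and 6.31, and COL4A6 had 6.12 on both. The chains COL4A3, COL4A4 and COL4A5 form the type IV collagen of the glomerular filter and of part of the tubules. None of the 4 differed by more than 0.22 in either direction.

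The short-chain network collagens held the largest difference of the family. COL8A1, a chain of type VIII collagen, which is known from the membrane beneath the corneal endothelium and from vessel walls, had a log2 value of 7.52 in the Kindlin-2 shRNA array and 6.49 in the control array. The difference of 1.04 made it 2.05-fold higher, and 145 of the genes kept had a larger increase. The control value lay below the floor, so COL8A1 was kept only through the array in which it was high, and its fold involves a dim value. COL8A2, the other type VIII chain, had 6.65 and 6.80, a difference of -0.14. The 2 type VIII chains were therefore apart by 1.18 in their differences. COL10A1, the chain of growth plate cartilage, was below the floor with 5.21 and 5.27.

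**Figure D2:**
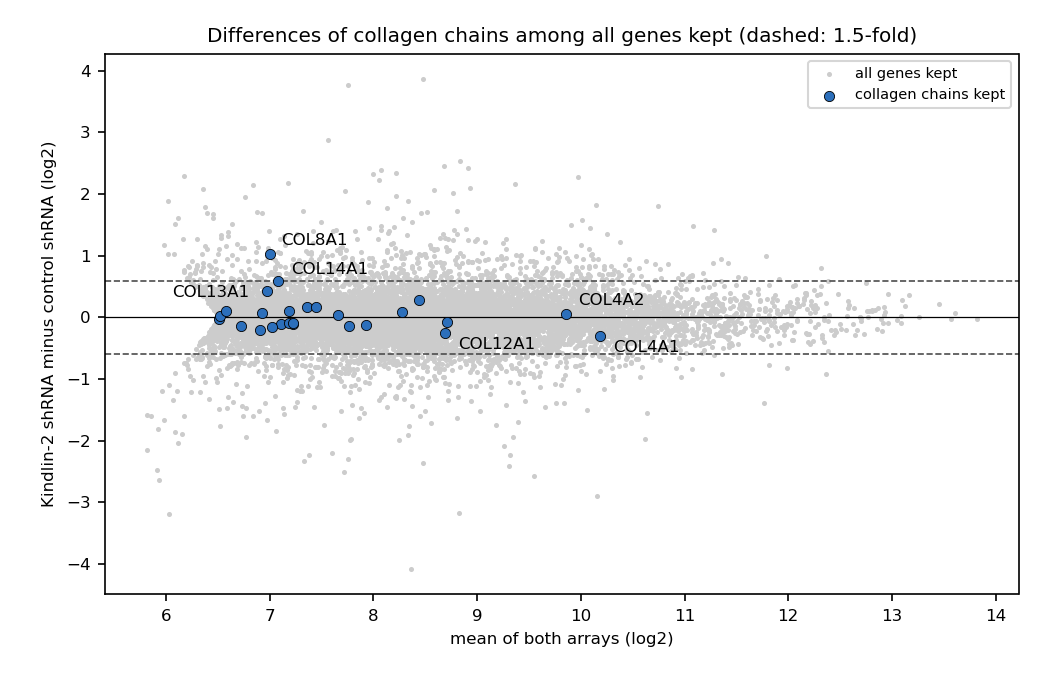
Difference between the arrays (Kindlin-2 shRNA minus control shRNA, log2) against the mean of both arrays (log2) for all 11822 genes kept in grey and the 26 collagen chains kept in blue. Dashed lines mark 1.5-fold, and only COL8A1 and, just past the line, COL14A1 lie beyond it among the chains.

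Fibril-forming chains differed little. All 11 were within 0.3 of 0, and the 8 that were kept ranged from -0.14 (COL27A1) to 0.17 (COL1A1). COL1A1, the main chain of type I collagen, had 7.45 in the Kindlin-2 shRNA array and 7.28 in the control array. COL1A2, its partner in the type I helix, had 6.50 and 6.52, and COL3A1, the type III chain, had 6.52 and 6.51. Both sat at the floor itself and were kept through 1 array each. A trace of type I and III collagen RNA and none could not be told apart at such values, because the table carries no detection calls.

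The minor fibrillar chains, which sit inside type I and II fibrils and set their width, were split around 0. COL5A1 had 6.63 in the Kindlin-2 shRNA array and 6.52 in the control array, also kept through 1 array only, and COL5A3 had 7.17 and 7.28. COL11A2 had 7.13 and 7.23. It was the 1 chain with several clusters, and its other 2 clusters had the same values as each other, 5.89 and 6.04, with a difference of -0.15 beside -0.09 for the brightest. COL2A1, the cartilage fibril chain, had 7.05 and 7.17, and COL27A1 had 7.70 and 7.83. COL5A2, COL11A1 and COL24A1 were below the floor and differed by 0.02, -0.02 and -0.18.

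Among the fibril-associated collagens, which lie on the surface of fibrils, COL14A1 stood apart from the other 9. Its log2 value was 7.38 in the Kindlin-2 shRNA array and 6.78 in the control array, both above the floor. The difference of 0.60 was 1.51-fold, just past the threshold of 1.5, and 576 of the genes kept had a larger increase. COL12A1, the chain most like COL14A1 in its domain plan, had 8.57 and 8.82 and so differed in the other direction, by -0.25. COL22A1 and COL20A1, further members of the class, differed by 0.07 and 0.10, and COL16A1 by -0.15.

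The 3 chains of type IX collagen, which coats cartilage fibrils, were all slightly lower in the Kindlin-2 shRNA array. COL9A2 had 6.80 in the Kindlin-2 shRNA array and 7.01 in the control array, and COL9A3 had 7.87 and 7.99. COL9A1 was below the floor, with 5.90 and 5.93. The differences were -0.21, -0.13 and -0.04, in the order COL9A2, COL9A3 and COL9A1. COL19A1 and COL21A1 were below the floor and differed by -0.03 and -0.07.

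All 5 beaded-filament chains of type VI collagen, which forms a web close to the cell surface, were higher in the Kindlin-2 shRNA array, by 0.05 to 0.38. Of all 18417 genes, 46.7% were higher. COL6A2 had 8.58 in the Kindlin-2 shRNA array and 8.30 in the control array, and COL6A1 had 8.31 and 8.23. COL6A3, the long chain of the same helix, had 5.68 and 5.29, below the floor on both arrays. COL6A5 and COL6A6, which can stand in for COL6A3, were also below the floor, with 3.58 and 3.34 for the first and 4.51 and 4.47 for the second. None of the 5 passed 1.5-fold, and only COL6A1 and COL6A2 were kept. These neighbours lie on chromosome 21, whose genes kept had a median difference of 0.08.

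RefSeq promoter windows of 2 type VI partners are shown because their differences had the same sign while only COL6A2 reached the floor. The window of COL6A2 is chr21:46097862-46098161, plus strand, and that of COL6A3 is chr2:237414115-237414414, minus strand, both on GRCh38.p14. In capitals, COL6A2 has 4 GC boxes and 1 TATA motif, and COL6A3 has none of the searched motifs in this window.
COL6A2: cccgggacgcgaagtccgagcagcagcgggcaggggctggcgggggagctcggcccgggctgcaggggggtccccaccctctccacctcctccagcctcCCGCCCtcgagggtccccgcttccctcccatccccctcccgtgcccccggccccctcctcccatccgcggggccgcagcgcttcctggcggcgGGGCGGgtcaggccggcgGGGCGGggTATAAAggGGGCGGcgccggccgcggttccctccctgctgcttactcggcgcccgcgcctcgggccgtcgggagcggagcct
COL6A3: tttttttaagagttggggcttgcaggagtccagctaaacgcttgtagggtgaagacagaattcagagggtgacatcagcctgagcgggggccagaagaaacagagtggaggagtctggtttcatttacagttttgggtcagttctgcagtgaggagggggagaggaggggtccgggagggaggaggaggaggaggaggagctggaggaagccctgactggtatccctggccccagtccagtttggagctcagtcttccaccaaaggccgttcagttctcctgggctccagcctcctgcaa

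The remaining classes join collagens to basement membranes or to the cell itself. COL7A1, the anchoring fibril chain that ties epithelium to stroma, had 7.53 in the Kindlin-2 shRNA array and 7.37 in the control array. COL18A1, the basement membrane collagen from which endostatin is cut, had 8.67 and 8.75, and the related COL15A1 was below the floor with 6.01 and 5.91. Neither the anchoring chain nor these multiplexins differed by more than 0.17. COL26A1 differed by -0.10 (7.18 and 7.27), and COL28A1, below the floor, by -0.30 (5.47 and 5.77).

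Of the transmembrane collagens, COL13A1 had the largest difference, next in the family after COL8A1 and COL14A1. This chain, found at sites where cells attach to matrix and at the nerve-muscle junction, had 7.19 in the Kindlin-2 shRNA array and 6.76 in the control array. The difference of 0.43, or 1.34-fold, did not reach the threshold of 1.5-fold, and 1050 of the genes kept had a larger increase. COL23A1 had 7.68 and 7.64, and COL25A1 was below the floor with 5.98 and 6.16. The promoter window of COL13A1 is shown for the same reason, its place next to those chains. It is RefSeq's on GRCh38.p14, chr10:69801656-69801955, plus strand, and the capitals mark 1 TATA motif far before the start at base 251.
COL13A1: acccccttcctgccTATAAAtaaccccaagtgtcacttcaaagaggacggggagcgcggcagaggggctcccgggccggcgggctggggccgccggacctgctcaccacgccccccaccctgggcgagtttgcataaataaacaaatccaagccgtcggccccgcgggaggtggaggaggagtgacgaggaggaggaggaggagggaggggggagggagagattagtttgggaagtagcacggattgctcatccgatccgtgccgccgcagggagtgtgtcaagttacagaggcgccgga

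Promoter windows were found in the RefSeq table for 31 of the 43 chains, 43 windows in all. The motifs searched on both strands were the GC box (GGGCGG), the CCAAT box (CCAAT) and a TATA motif (TATAAA), and hits of 1 motif may overlap. A GC box was present in 17 of 21 windows of kept chains and in 7 of 22 windows of chains below the floor, beside 45.0% of all 35116 windows in the table. The median share of G and C was 71.7% in the windows of kept chains, 57.0% in those of chains below the floor and 58.7% in all windows. A CCAAT box was present in 5 of the 21 and 8 of the 22, beside 34.6% of all windows, and a TATA motif in 4 and 3, beside 11.5%. Shares were not computed over the windows of all genes kept or of all genes below the floor. The contrast between kept and dim chains therefore cannot be called a trait of collagens. Several windows belong to 1 gene or overlap, so windows are not independent, and a match is a description of letters, not a site.

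Pairs of chains that share a triple helix or a stretch of chromosome were set side by side. Of the 12 pairs compared, 8 had differences of the same sign, and in 6 of these 8 at least 1 gene was below the floor. Some chains are in more than 1 of these pairs, and the share over pairs of other genes was not computed. Both genes were kept in 5 pairs, and 2 of these 5 had the same sign, COL6A1 with COL6A2 and COL9A2 with COL9A3. The other 3 were COL1A1 with COL1A2, COL4A1 with COL4A2, and COL8A1 with COL8A2. COL8A1 with COL8A2 lay furthest apart of the 12 pairs, by 1.18, while COL1A2 (-0.02) and COL4A2 (0.06) were each close to 0.

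Some of the chromosomes that hold chains had median differences away from 0. Genes kept on chromosome 9 had a median difference of -0.31, those on chromosomes 7 and 12 medians of -0.22 and -0.21, and those on chromosome 20 one of 0.26. When the median of the 50 nearest kept genes was subtracted, COL5A1 on chromosome 9 was at 0.40 in place of 0.11, and COL27A1 on the same chromosome at 0.22 in place of -0.14. COL1A2 and COL26A1 on chromosome 7 were then at 0.25 and 0.18, and COL9A3 on chromosome 20 at -0.30. The sign turned from below to above 0 in 5 chains and from above to below 0 in 2, so that 16 of the 26 were above 0 with a median of 0.09. The differences of COL8A1 (1.04) and COL14A1 (0.65) stayed past 1.5-fold, and COL4A1 stayed at -0.31. The part of the chromosomal shifts in the chains' own differences was not tested otherwise.

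**Figure D3:**
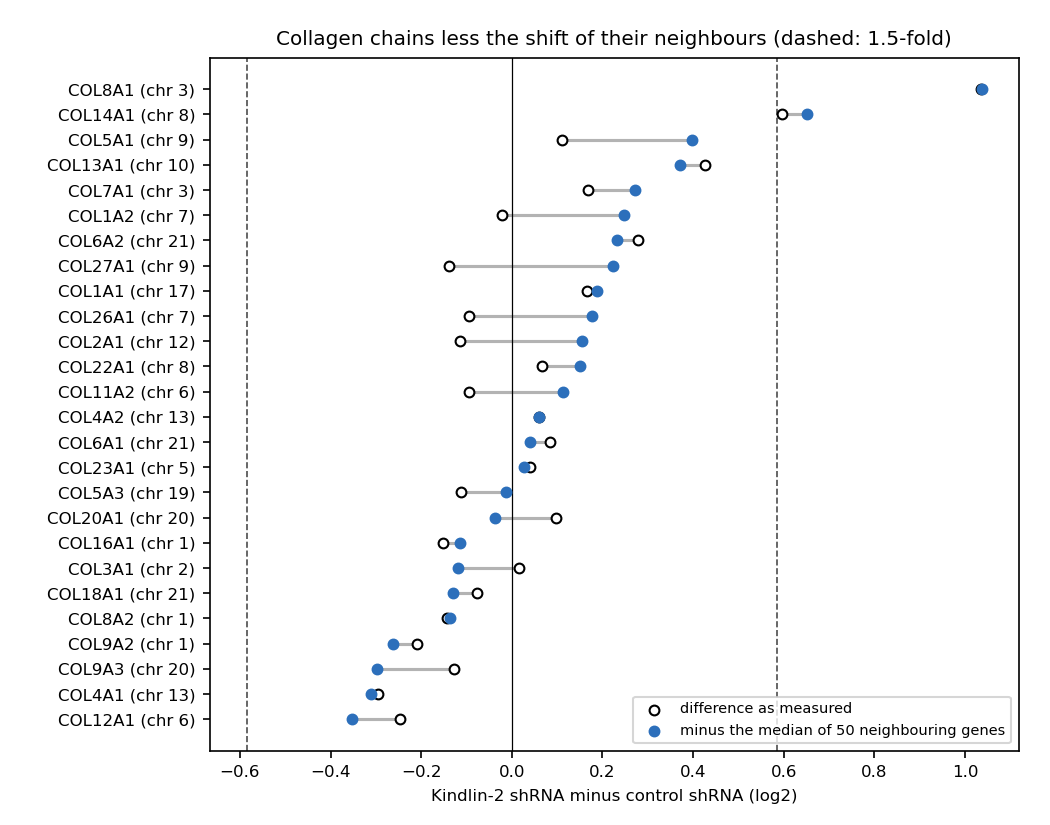
Differences of the 26 collagen chains kept (Kindlin-2 shRNA minus control shRNA, log2) as measured (open circles) and after subtraction of the median difference of the 50 nearest kept genes on the same chromosome (filled circles). Chains on chromosomes 7, 9 and 12 lie further right after the subtraction, and COL8A1 and COL14A1 are past the dashed 1.5-fold line either way.

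Genes that make, export, join, bind and break down collagens were described by role. The lists were written with earlier results of these data known, so the shares below only describe them. Over 8 lists with 96 genes, 91 were measured and 65 kept. Past 1.5-fold, 9 of the 65 (13.8%) were higher in the Kindlin-2 shRNA array and 4 (6.15%) were lower, beside 5.10% and 5.23% of all genes kept. Of the 9, ITGA11 was kept only through the array in which it was high. The median difference of the 65 was 0.16. Their middle size without sign was 0.31 beside 0.12 for the collagen chains and 0.19 for all genes kept. The median value of these genes was 8.97, above that of the chains (7.20), and the part of brightness in these sizes was not tested. Procollagen processing, with a median value of 7.02, had 0 of 7 genes past 1.5-fold, too few genes to set beside the shares of all genes kept.

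Of the enzymes that modify prolines and lysines in the new chains, 13 were kept, and 1 of them passed 1.5-fold. Above 0 were 9 of the 13, where 46.4% of all genes kept were, and the median difference was 0.24. The gene past 1.5-fold was the lysyl hydroxylase PLOD1, with 9.47 in the Kindlin-2 shRNA array and 8.74 in the control array, or 1.65-fold higher. The subunits of prolyl 4-hydroxylase P4HA1, P4HA2 and P4HB differed by 0.31, 0.46 and 0.38, and PLOD2, which hydroxylates the ends of the chains, by 0.24. P3H2, a prolyl 3-hydroxylase that acts on type IV collagen, differed by -0.38.

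Helpers of folding and export went both ways. Past 1.5-fold, 3 of the 14 kept were higher and 1 was lower. SEC24D, a coat component of the vesicles that carry procollagen from the endoplasmic reticulum, differed by 0.99 from a control value of 8.01, or 1.98-fold higher. The general chaperones HSPA5 and HSP90B1 were 1.83-fold and 1.74-fold higher, and both serve many proteins other than collagen. They lie on chromosomes 9 and 12, whose shifts run the other way, and with the median of their neighbours subtracted they were at 1.21 and 0.94. FKBP7, a prolyl isomerase of the same compartment, was 1.82-fold lower, with 6.95 and 7.81. SERPINH1, the chaperone that binds only collagens, had 9.85 and 10.12, a difference of -0.27, and MIA3, which loads procollagen for export, differed by 0.12.

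None of the 7 kept genes that trim procollagen passed 1.5-fold. BMP1, which removes the end piece of fibrillar chains, differed by -0.36, and ADAMTS3, which removes the front piece of type II chains, also by -0.36. FURIN, which activates such proteases, differed by 0.25. The list's median was -0.05.

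Among the crosslinking enzymes, 2 were at least 2-fold higher. TGM2, a transglutaminase that joins glutamine to lysine in matrix proteins, had 11.65 in the Kindlin-2 shRNA array and 9.85 in the control array, or 3.48-fold higher, and it was at 1.47 in place of 1.80 when the median of its neighbours on chromosome 20 was subtracted. LOXL2, a lysyl oxidase that acts on type IV collagen, had 10.62 and 9.59, or 2.04-fold higher. LOXL1, better known for elastin, was 1.55-fold lower, with 8.15 and 8.78. PXDN, which makes the sulfilimine bonds of type IV collagen, differed by 0.29. All 7 genes of the list were kept, and 6 were above 0, where 46.4% of all genes kept were.

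Collagen receptors were split. Of 8 kept, 4 were above and 4 below 0. DDR1, the discoidin receptor of epithelia, had 8.67 in the Kindlin-2 shRNA array and 9.33 in the control array, or 1.58-fold lower. ITGA11, an integrin subunit that binds fibrillar collagen, had 7.02 and 6.39, or 1.54-fold higher, with the control value below the floor. ITGB1, the beta-1 subunit shared by the collagen-binding integrins, differed by 0.46 and ITGA2 by 0.16. DDR2, the receptor of connective tissue cells, was below the floor.

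Of the genes of collagen breakdown, 5 of 13 were kept. The lysosomal protease CTSB, or cathepsin B, had 10.96 in the Kindlin-2 shRNA array and 10.17 in the control array, or 1.74-fold higher, and MMP14, a membrane-bound collagenase, differed by 0.29. The soluble collagenases MMP1, MMP8 and MMP13 were below the floor, with values from 3.57 to 5.14. Of the small leucine-rich proteoglycans, which decorate fibrils, only BGN of 9 was kept, with 7.14 and 7.13.

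Partners of type IV collagen in the basement membrane went both ways around a median of -0.02. LAMC1, the laminin gamma-1 chain, had 11.10 in the Kindlin-2 shRNA array and 10.45 in the control array, or 1.56-fold higher. NID2, which bridges laminin and type IV collagen, had 7.71 and 8.80, or 2.13-fold lower, while its relative NID1 differed by 0.52. The heparan sulfate proteoglycan HSPG2 differed by -0.02. Of 10 kept, 4 were above 0 and 6 below.

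**Figure D4:**
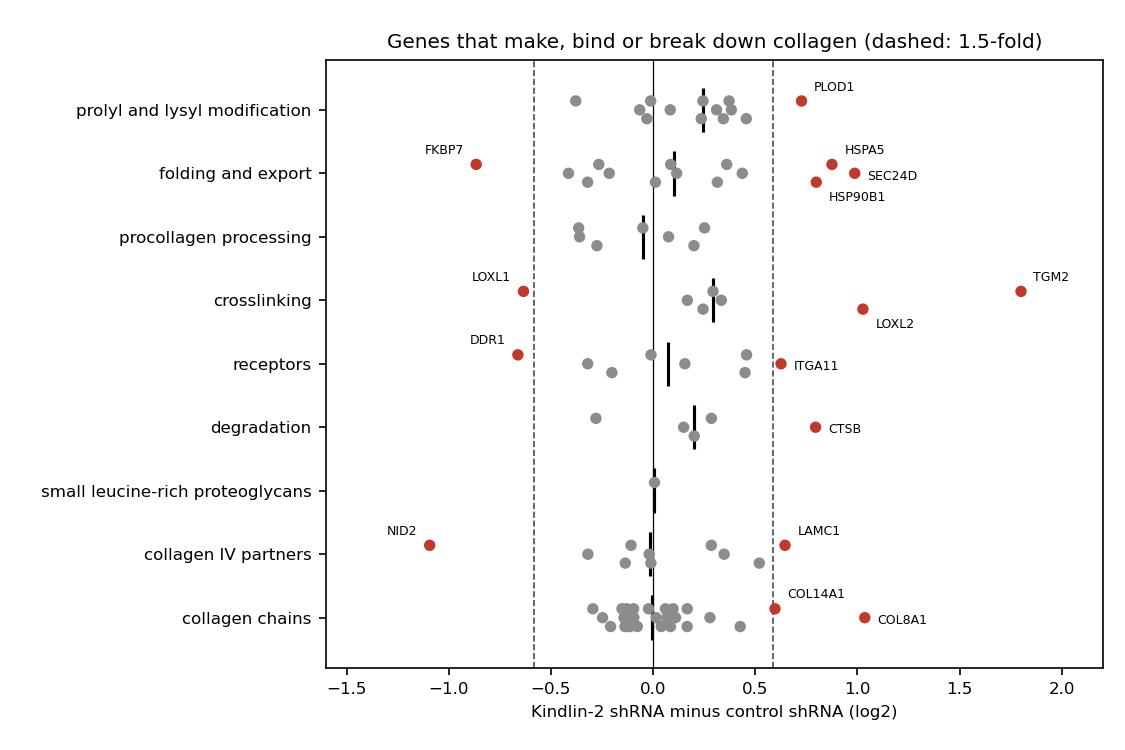
Differences (Kindlin-2 shRNA minus control shRNA, log2) of the kept genes of the 8 collagen pathway lists and of the 26 collagen chains, 1 point per gene, with the median of each list as a vertical bar. Genes beyond the dashed 1.5-fold lines are red and named, from NID2 at -1.09 to TGM2 at 1.80, and the collagen chains crowd around 0.

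Markers checked the label and other cell types. All 9 measured markers of renal epithelium and its carcinoma were kept, among them PAX8 with 11.29 in the Kindlin-2 shRNA array and 11.43 in the control array. CDH16, whose value of 6.26 in the Kindlin-2 shRNA array lay below the floor, was 1.78-fold lower and PAX2 1.58-fold. In this list 7 markers were below 0, where 6285 of the 11822 genes kept were, and EPCAM (0.25) and VIM (0.20) were above it. The mean value of the list was 10.40 and 10.73. Endothelial (6 measured) and leukocyte (5 measured) markers were all below the floor. Of 10 fibroblast and pericyte markers 4 were kept, and RGS5, PDGFRB and ACTA2 were 2.24-fold, 1.71-fold and 1.70-fold lower in the Kindlin-2 shRNA array, while THY1 differed by 0.17. The value of PDGFRB in the Kindlin-2 shRNA array, 6.31, lay below the floor. So did both values of DCN, LUM, PDGFRA, FAP, POSTN and TAGLN, which ranged from 3.27 to 6.50. RGS5, ACTA2 and THY1 were well above the floor on both arrays, with values from 9.64 to 11.06. The list's mean value was 6.19 in the Kindlin-2 shRNA array and 6.45 in the control array. Of 6 chondrocyte markers 3 were kept, with MATN3 1.92-fold higher and a mean value of 6.85 and 6.60. The part of these cell types in the collagen values was not tested.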

How the data were processed

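The authors deposited log2 values of 33297 transcript clusters, which the submitters' processing notes credit to RMA and to Affymetrix Expression Console 1.4.1. RMA corrects background, aligns the arrays and summarises probes, and it shrinks differences between dim values. The log2 scale was read from the values, 2.13 to 14.04. The sources used here do not say which arrays were normalised together.

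Platform symbols were brought up to date with RefSeq (GRCh38.p14) by Entrez ID, which was found for 19429 of 19460 clusters with a single symbol. Of the other clusters, 1754 had several symbols and 12083 none. One such cluster that names a collagen beside another gene was not used. The brightest cluster stood for a gene. Genes were kept when the higher value reached 6.52.

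Counts at 1.5-fold and medians are descriptions, and no test was possible with 1 array per group. The alternatives were no or a stricter filter, a loess curve (span 0.3), quantile normalisation, the mean over clusters, a 2-fold threshold, a mean in place of the median, and subtraction of the median of the chromosome or of 50 neighbours. The named genes were FERMT2, every chain, each pathway or marker gene past 1.5-fold and 7 fixed genes. Many further list members were named after their values were seen. Members and lists were chosen with earlier results of these data known. Counting and neighbour subtraction were tested on simulated data. Python 3.11.15, pandas 2.3.3, numpy 2.4.6 and statsmodels 0.14.6 were used.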

Additional observations from a re-analysis of the deposited data

How the results depend on the processing

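The count of collagen chains at least 1.5-fold higher in the Kindlin-2 shRNA array was 2 with no filter, loess, quantile normalisation, the mean over clusters and both chromosomal subtractions. It was 1 with the stricter filter, which by its construction leaves out COL8A1, and 1 at the 2-fold threshold, which COL14A1 does not reach. The count of chains at least 1.5-fold lower was 0 in every setting run. The median of the chains lay between -0.09 (stricter filter) and 0.09 (neighbour median subtracted), so it has no stable sign. FERMT2 differed by -1.10 to -1.19 over the alternatives. At 2-fold, 2 of the 65 pathway genes kept were higher and 1 lower, in place of 9 and 4, beside 1.41% and 1.26% of all genes kept. With no filter the counts were 9 and 4 of the 91 measured, beside 3.77% and 3.81% of all 18417 genes. Of the 26 kept chains, loess, quantile normalisation and the mean over clusters moved none by over 0.1, subtraction of the chromosome median moved 7 and that of the neighbour median 12, and no chain crossed 1.5-fold under these. No paired analysis was possible because each group held 1 array. Values near the floor, such as those of COL1A2 and COL3A1, limit what can be said of those chains, and the table carries no detection calls.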
